A study of Homo sapiens with 8 samples.

Results

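The genes described here are 10 regulators and markers of the epithelial-mesenchymal transition (EMT), chosen by name among the 43317 gene names on the arrays. They are the transcription factors SNAI1, SNAI2, TWIST1, ZEB1 and ZEB2, the epithelial adhesion genes CDH1 and EPCAM, and the mesenchymal genes CDH2, VIM and FN1. Every probe that the array files assign to one of these names was taken, which gave 17 probes. Membership was set by gene name, and the names were picked with earlier results of these data known.

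Each of 8 two-colour Agilent arrays compared RNA of cells transfected with 1 mature miRNA (Cy5) with mock RNA of that line (Cy3). HCT116, an established colon cancer line, received 1 strand (5p or 3p) of the miR-139 or the miR-143 precursor, and PANC-1, an established pancreatic cancer line, 1 strand of miR-30c (5p or miR-30c-2-3p) or of miR-30a. Below, 4 values for a line stand in precursor order, miR-139 before miR-143 and miR-30c before miR-30a, with the 5p strand first. Transfection used Lipofectamine RNAiMAX, and the mock cells, labelled as not transfected, received no miRNA. Whether they received the reagent is not stated, and no array of a control miRNA was analysed here. Effects of a miRNA and of transfection itself therefore cannot be told apart in any ratio. The transfected RNA was in Cy5 on all 8 arrays, with no dye swap. A difference between the dyes at a probe cannot be told apart from them either. With 1 array per miRNA there was no replicate and no test of any miRNA, so a gene is called lower or higher below by a fixed size, at least 2-fold from mock.

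In EMT, epithelial cells lose their contacts and take on features of migrating mesenchymal cells. The SNAI, TWIST and ZEB proteins are repressors that bind the promoter of CDH1 (E-cadherin, the adhesion molecule of adherens junctions), and cells in this state often carry CDH2 (N-cadherin), the intermediate filament protein VIM (vimentin) and the matrix protein FN1 (fibronectin). In colon and pancreatic cancers this state is studied for its link to invasion, and miRNAs are known to act on it by pairing their seed, bases 2 to 8, with mRNAs.

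The 8 transfected miRNAs are shown with their seed in capitals, 5′ to 3′, because the seed decides which arrays tested the same pairing rule. The sequences are the mature forms in RefSeq (GRCh38.p14). The first pair shares a seed, and each of the other 6 has a seed of its own.
miR-30c-5p: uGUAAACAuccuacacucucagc
miR-30a-5p: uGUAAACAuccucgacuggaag
miR-30c-2-3p: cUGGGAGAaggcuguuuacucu
miR-30a-3p: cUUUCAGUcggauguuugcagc
miR-139-5p: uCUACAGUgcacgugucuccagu
miR-139-3p: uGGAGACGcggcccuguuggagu
miR-143-5p: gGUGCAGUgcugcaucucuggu
miR-143-3p: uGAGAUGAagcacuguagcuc
miR-30c-5p and miR-30a-5p are identical over their first 12 bases. The miR-30a strands come from the minus strand of chromosome 6, miR-30a-5p at chr6:71403595-71403616 and miR-30a-3p at chr6:71403554-71403575. The miR-30c-2-3p strand lies at chr6:71376964-71376985, also on the minus strand.

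Of the 17 probes, 12 were well above background in at least 1 channel of some array, and 5 were so in both channels of all 8 arrays. Those 5 belong to SNAI1, ZEB1 (2 probes), EPCAM and VIM. The 5 probes that were above background nowhere are 3 of the 4 TWIST1 probes and 2 of the 3 ZEB2 probes, and 3 of those 5 carry accessions of non-coding RNAs rather than of the mRNA. The CDH1 probe was printed 10 times on each array. The other probes were printed once, so a spread between spots can be given for CDH1 alone.

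Across the arrays, VIM was the only one of the 10 genes at least 2-fold from mock, and it was lower on 3 PANC-1 arrays. None of the 10 was called higher on any array. The background for each count is the share of all detected genes past the same size, a gene being detected where either channel of its probe was well above background. On the miR-30c-5p array 1 of 8 detected genes of the group was lower, against 0.445% of all detected genes, and 0 were higher, against 0.747%. On the miR-30c-2-3p array 1 of 6 was lower, against 4.14%, and 0 were higher, against 1.71%. On the miR-30a-5p array 1 of 7 was lower, against 0.263%, and 0 were higher, against 0.306%. The miR-30a-3p array had 0 of 7 lower, against 1.1%, and 0 higher, against 0.372%. In HCT116 none of the detected genes of the group was called. They numbered 8 for miR-139-5p, against a background of 0.201% lower and 0.0587% higher, 7 for its other strand (2.82% and 2.11%), 6 on the miR-143-5p array (1% and 0.356%) and 7 on the miR-143-3p array (0.925% and 0.517%). Each count was of 0 or 1 gene, so the counts describe VIM and not the group.

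**Figure D1:**
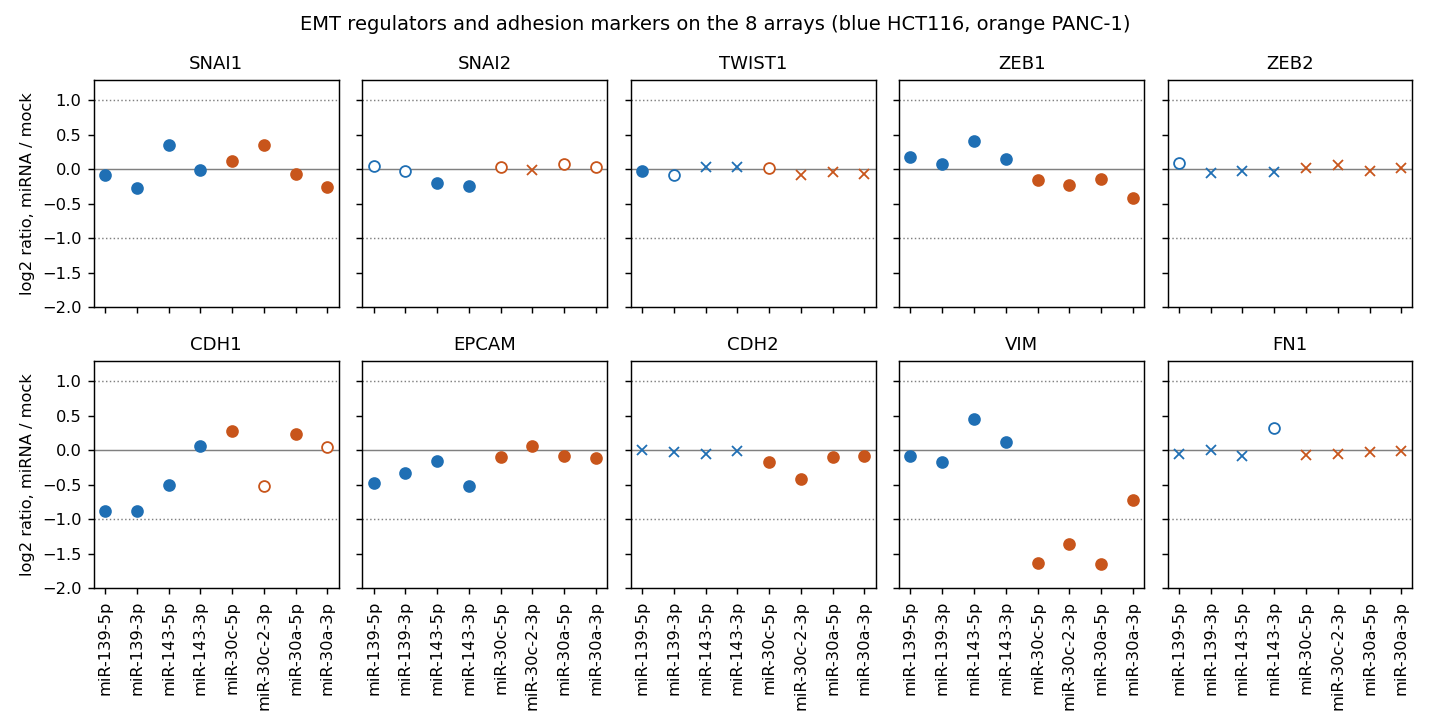
Log2 ratio of miRNA-transfected over mock cells for each of the 10 genes (panels) on each of the 8 arrays (x axis), 1 point per array. Filled points had both channels well above background, open points 1 channel, and crosses neither, and dotted lines mark the 2-fold size. VIM on the miR-30c-5p, miR-30c-2-3p and miR-30a-5p arrays, at -1.63, -1.35 and -1.65, lies past the lower line.

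VIM encodes vimentin, the main intermediate filament of mesenchymal cells. It was measured with 1 probe of 60 bases, printed here because the largest values of the group rest on it.
VIM probe: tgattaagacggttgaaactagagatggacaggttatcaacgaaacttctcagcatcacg
On hg19, the build of the array files, the probe lies at chr10:17278347-17279256 on the plus strand, and it covers 910 bases of genome with 60 bases of sequence, so it crosses at least 1 intron.

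The mean VIM signal in PANC-1 mock cells (Cy3) was 33725, 36977, 39765 and 28860. In the transfected cells (Cy5) the signals were 18187, 20042, 20041 and 36493. No spot on any array was saturated. The Cy5 signal was thus below the Cy3 signal on 3 arrays and above it on the miR-30a-3p array, before the dyes were put on a common scale.

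After loess normalisation the VIM log2 ratio in PANC-1 was -1.63, -1.35, -1.65 and -0.72. VIM was 3.10-fold, 2.56-fold and 3.14-fold lower than mock on the first 3 arrays and 1.65-fold lower on the fourth. The 2 strands that share a seed gave the lowest values and miR-30a-3p the highest. The 2 arrays of each precursor may share 1 mock RNA, so these 4 ratios are not independent. On the miR-30a-5p array only 6 of 20944 detected genes had a lower log2 ratio than VIM, and on the miR-30c-5p array 10 of 20887. On the miR-30c-2-3p array 397 of 20703 were lower, and on the miR-30a-3p array 539 of 22063.

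These loess ratios were larger than the spread of VIM between mock channels. In PANC-1 mocks the normalised VIM level ran from 15.03 to 15.36 on the log2 scale over the 4 arrays, a range of 0.33, and the means of the miR-30c and miR-30a mocks differed by 0.05. Quantile normalisation gave the same level, 15.14, on both miR-30c arrays, where the signals were 33725 and 36977. The range may therefore understate the spread of so bright a probe. The spread between transfected cultures was not measured.

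In HCT116 the VIM log2 ratio was -0.08, -0.17, 0.45 and 0.12, and none reached 2-fold. Mock signals there were 84.3 and 93.9 on the miR-139 arrays and 33.6 and 33.5 on the miR-143 arrays. Signals in transfected cells were 93.2, 84.0, 64.1 and 41.0. VIM in HCT116 was thus dim, though well above background in all 8 channels, and the mock levels of the 2 precursors differed by 0.92 on the log2 scale, more than any of the 4 ratios.

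The size of the VIM values depended on how the dyes were balanced. The scanner software's own ratio was -1.65, -1.47, -1.72 and -0.68 in PANC-1. Centring each array on its median, with no loess, gave -0.92, -0.89, -1.02 and 0.28, so that only the miR-30a-5p value stayed past 2-fold and the miR-30a-3p value changed sign. Under that centring the median of all detected genes itself was 0.21, 0.08, 0.15 and 0.30 on those arrays. Relative to this median VIM was at -1.13, -0.97, -1.17 and -0.02. On the miR-30a-3p array the direction for VIM is therefore not settled by these data. For miR-143-5p in HCT116, the scanner ratio was 1.45, against 0.45 with the background method used here, which adds an offset of 50 to each signal and draws ratios of dim spots towards 0.

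**Figure D2:**
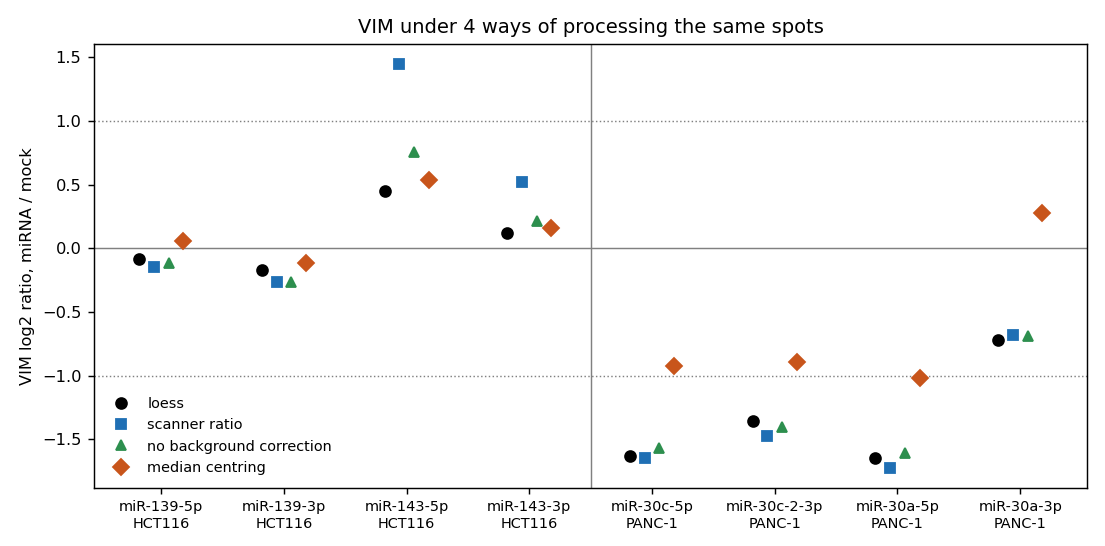
VIM log2 ratio of transfected over mock cells (y axis) on the 8 arrays (x axis), with 1 marker for each of 4 ways of processing the same spot, and dotted lines at 2-fold. Median centring lifts all 4 PANC-1 values and puts miR-30a-3p at 0.28, while the other 3 ways place it between -0.72 and -0.68.

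The genes whose log2 ratios were most like those of VIM over the 8 arrays were CRACR2B (Pearson r = 0.97), GNAI2 (r = 0.91) and PTP4A1 (r = 0.89), among 2154 genes well above background in all 16 channels and past 2-fold on at least 1 array. CRACR2B, a regulator of store-operated calcium channels, had log2 ratios of -1.04, -0.61, -0.75 and -0.44 in PANC-1. GNAI2, an inhibitory G protein alpha subunit, had -1.499, -0.85, -1.39 and -0.01, and PTP4A1, a protein tyrosine phosphatase, had -1.16, -0.63, -1.33 and 0.12. All 3 were lowest with the 2 strands that share a seed and above 0 on the HCT116 arrays, where they ran from 0.01 to 0.64. They were picked for their likeness to VIM on these same arrays. This pattern therefore follows in part from that choice and is no separate evidence. The 8 arrays share lines and dye orientation and may share mock RNA, so these correlations are descriptions.

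**Figure D3:**
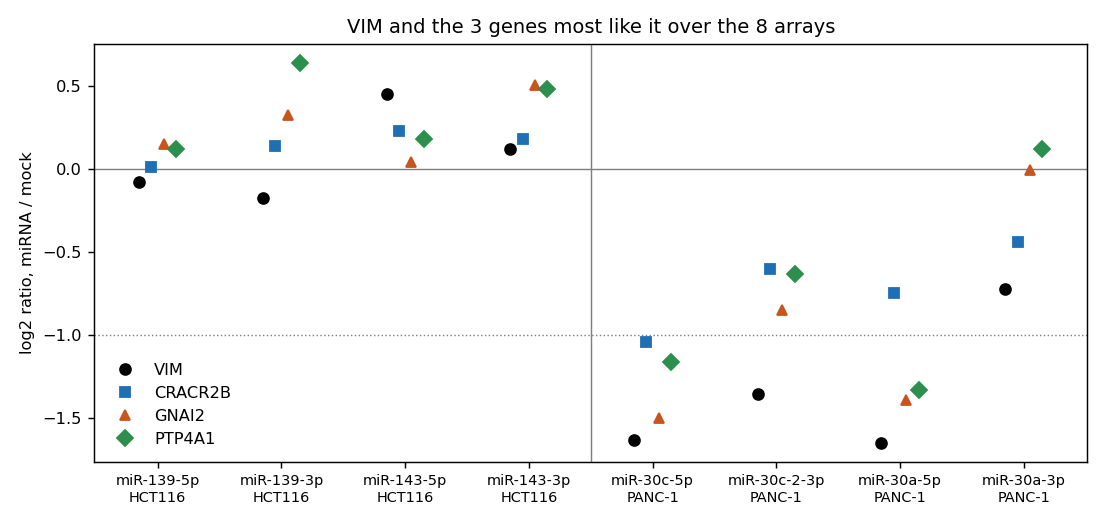
Log2 ratios of transfected over mock cells (y axis) for VIM, CRACR2B, GNAI2 and PTP4A1 on the 8 arrays (x axis), 1 point per gene and array, with the dotted line at 2-fold lower. The other 3 genes were picked for their likeness to VIM on these same arrays. For the 2 strands that share a seed the values of GNAI2, -1.499 and -1.39, are nearest to those of VIM.

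CDH1 encodes E-cadherin and gave the lowest ratios of the group in HCT116. Its probe lies at chr16:68869214-68869273 (hg19, plus strand). Its mean mock signals were 326, 329, 607 and 574 in that line, and its signals in transfected cells were 202.5, 166, 489 and 600.4. The log2 ratios were -0.89 ± 0.04, -0.89 ± 0.06, -0.50 ± 0.08 and 0.06 ± 0.03 (SD between the 10 printed spots of 1 array, a technical error). CDH1 was lower than mock with both strands of miR-139, 1.85-fold each, and the values stayed short of 2-fold. Only 62 of 20443 detected genes had a lower ratio on the miR-139-5p array, and 791 of 20708 on the miR-139-3p array.

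For CDH1 the scanner's own ratios were -1.11 and -1.09 on the 2 miR-139 arrays, past 2-fold, and median centring gave -0.67 and -0.87. Beside these values stands the spread between mocks. The CDH1 level in HCT116 mock cells was 8.60 and 8.61 on the 2 miR-139 arrays and 9.34 and 9.32 on the 2 miR-143 arrays (log2), a difference of 0.73 between precursors that is close to the size of the miR-139 ratios. The part of this mock difference in those ratios was not tested.

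In PANC-1 the CDH1 signals were near background, 39.8, 42.8, 24.6 and 24.0 in mock and 72.1, 22.8, 39.0 and 31.4 in transfected cells. The log2 ratios were 0.29 ± 0.12, -0.52 ± 0.08, 0.23 ± 0.05 and 0.05 ± 0.06 (SD between 10 spots). CDH1 was not well above background in the miR-30c-2-3p transfected cells, so that ratio is a bound, at least 1.43-fold lower. On the miR-30a-3p array the mock channel was not well above background, and the ratio is a bound of at least 1.03-fold higher. The scanner's ratios, without the offset, were 0.72, -3.49, 1.47 and 0.60, with the same signs.

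EPCAM, a homophilic adhesion molecule of epithelial cells (probe at chr2:47613894-47613953, hg19), was bright in HCT116, with mock signals of 4445, 4393, 4890.5 and 4636. Its log2 ratios there were -0.47, -0.33, -0.15 and -0.52, all below 0, and median centring turned the miR-143-5p value to 0.22 and kept the other 3 below 0. In PANC-1 the ratios were -0.10, 0.06, -0.09 and -0.12, and between 0.18 and 0.41 under median centring, so no direction holds there. The 4 HCT116 mock levels of EPCAM spanned 0.18 on the log2 scale, less than 3 of its 4 ratios in that line.

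CDH2 encodes N-cadherin, the cadherin of neural and mesenchymal cells. Neither of its 2 probes was above background in either channel of any HCT116 array. In PANC-1 the brighter probe had mock signals of 138, 154, 114 and 114 and log2 ratios of -0.17, -0.42, -0.10 and -0.08. Only the miR-30c-2-3p value stayed below 0 under every way of processing, from -0.57 to -0.25. Median centring put the others at 0.19, 0.12 and 0.36. The second probe, also above background in all PANC-1 channels, gave -0.09, -0.09, -0.05 and 0.11 with loess. The mock levels of CDH2 in PANC-1 spanned 0.38 on the log2 scale, close to its largest ratio.

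FN1 encodes fibronectin. Its single probe, on chromosome 2, was above background in 1 channel of 1 array, the miR-143-3p transfected HCT116 cells, with a signal of 40.1 against 21.9 in the mock. The log2 ratio there was 0.32, a bound of at least 1.25-fold higher, and the scanner's ratio was 3.42. On the other 7 arrays the FN1 signals lay between 18.6 and 21.8 in both channels, so this probe gave no level of FN1 in either line.

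SNAI1, the Snail repressor (probe at chr20:48605170-48605229, hg19), was measured in all 16 channels, with mock signals of 167 to 186 in HCT116 and 212 to 255 in PANC-1. Its log2 ratios in HCT116 were -0.08, -0.26, 0.35 and -0.01. In PANC-1 they were 0.12, 0.35, -0.06 and -0.25. The miR-143-5p and miR-30c-2-3p arrays gave the highest SNAI1 ratios, above 0 under every way of processing, at 0.35 to 0.50 and 0.32 to 0.52. They exceeded the range of the SNAI1 mock levels, 0.14 in HCT116 and 0.08 in PANC-1. The miR-30a-3p value turned to 0.31 under median centring.

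ZEB1, the zinc finger repressor that is a classical EMT regulator in pancreatic cancer lines, was also measured in all 16 channels. The brighter of its 2 probes, at chr10:31818063-31818122 (hg19), had log2 ratios of 0.18, 0.07, 0.42 and 0.15 in HCT116. In PANC-1 it had -0.15, -0.23, -0.14 and -0.41. The HCT116 values were above 0 under every way of processing. For the brighter probe only the miR-143-5p ratio exceeded the 0.35 range of ZEB1 between HCT116 mocks. The second probe gave 0.17, 0.13, 0.23 and 0.06 in HCT116, none of them past that range. In PANC-1 the second probe gave 0.08, 0.04, 0.09 and 0.01, with the opposite sign on all 4 arrays, and median centring put the brighter probe at 0.32, -0.02, 0.20 and 0.23. No direction holds for ZEB1 in PANC-1.

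SNAI2, TWIST1 and ZEB2 were at or near background. SNAI2, the Slug repressor, was above background in both channels on the 2 miR-143 arrays only, with mock signals of 42.3 and 39.7. Its log2 ratios were -0.20 with miR-143-5p and -0.24 with miR-143-3p. The scanner's ratios there, without the offset, were -0.80 and -1.21, the second past 2-fold. On the other arrays the loess ratios of SNAI2 ran from -0.03 to 0.08. TWIST1, a basic helix-loop-helix factor, was above background in both channels on the miR-139-5p array only, with a log2 ratio of -0.03. ZEB2 was above background in 1 channel, the miR-139-5p transfected cells, with a log2 ratio of 0.10 and a bound of at least 1.03-fold higher.

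The probes were searched for the seed match of every miRNA, a heptamer that pairs either with the whole seed or with all of it but the last base and then ends in A. Of the 17 probes, 3 held one, each for a different miRNA. They are shown with the heptamer in capitals and up to 10 probe bases on either side.
SNAI1 probe, miR-30a-3p: aacaatgtCTGAAAAgggactgtga
ZEB1 brighter probe, miR-143-3p: accagactccCATCTCAcaataaaatg
FN1 probe, miR-143-5p: aatactctttCTGCACAgaccacactg
Over all 58201 probes the share with such a heptamer was 1.79% for miR-30a-3p, 1.07% for miR-143-3p and 0.830% for miR-143-5p. The log2 ratio on the matching array was -0.25 for SNAI1, 0.15 for ZEB1 and -0.09 for FN1, which was not above background there. The VIM probe held no heptamer of any of the 8 miRNAs. A probe covers 60 bases, so these searches say nothing of the rest of each mRNA.

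The second question is how the 10 genes stood in the 2 lines before any miRNA. Mock levels are Cy3 signals on the log2 scale after quantile normalisation, with the 2 arrays of a precursor averaged, so each line has 2 values. Of the 10 genes, 8 were tested (limma across 22370 genes, Benjamini-Hochberg adjusted), and ZEB2 and FN1 were not, being above background in no mock channel. CDH1 and EPCAM were higher in HCT116, 2 of the 8, against 19.5% of all genes tested. ZEB1, CDH2 and VIM were higher in PANC-1, 3 of the 8, against 18.1%. SNAI1, SNAI2 and TWIST1 did not pass. Line and position on the slide cannot be told apart. The first position number of the array was 1 for all HCT116 arrays and 2 for all PANC-1 arrays. In RNA of whole cultures, fewer cells with a transcript and less of it in each cell cannot be told apart either.

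**Figure D4:**
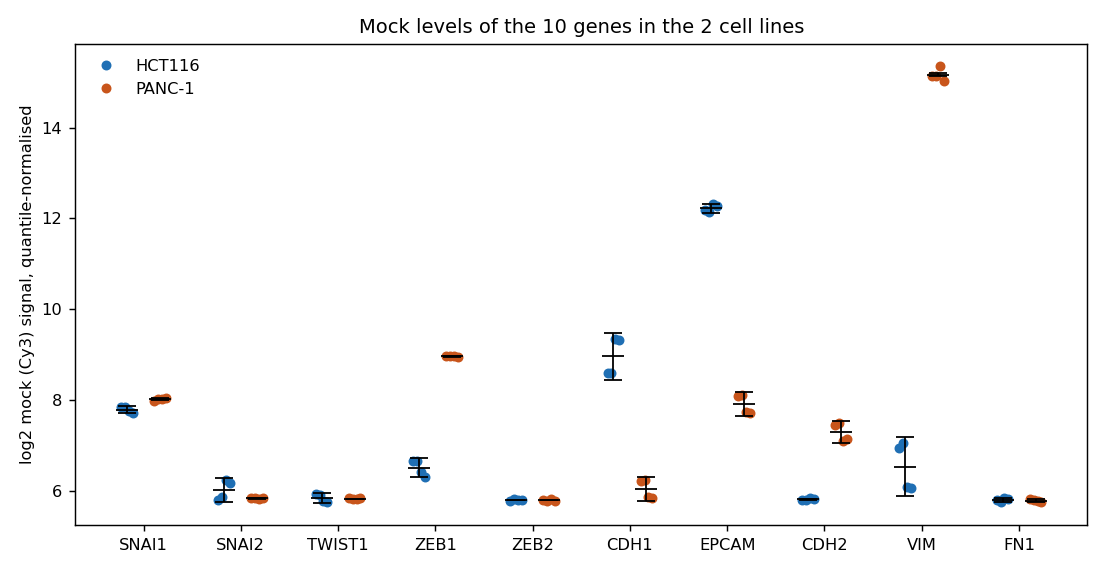
Log2 mock (Cy3) signal after quantile normalisation (y axis) of the 10 genes (x axis) in HCT116 and PANC-1, with 1 coloured point per array and a black bar for the mean ± SD of the 2 precursor means of each line. EPCAM and CDH1 were higher in HCT116, where 19.5% of all genes tested were. VIM, ZEB1 and CDH2 were higher in PANC-1, where 18.1% were, and SNAI1 did not pass the test. Levels of different genes cannot be compared because each comes from its own probe.

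EPCAM was at 12.22 ± 0.10 in HCT116 and 7.91 ± 0.26 in PANC-1 (mean ± SD, n = 2), a log2 difference of 4.31 with an SE of 0.15 (limma, adjusted p = 0.0017). CDH1 was at 8.97 ± 0.52 in HCT116 and 6.04 ± 0.27 in PANC-1, a difference of 2.92 with an SE of 0.31 (limma, adjusted p = 0.0085). The 4 CDH1 mock values in PANC-1, 6.22, 6.25, 5.86 and 5.85, were close to background, and 3 of those channels were well above it. The CDH1 call was lost when either PANC-1 mock was left out, at adjusted p = 0.067 without the miR-30c arrays and 0.076 without the miR-30a arrays (limma), with differences of 3.11 and 2.74.

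VIM was at 6.53 ± 0.65 in HCT116 and 15.17 ± 0.04 in PANC-1 (mean ± SD, n = 2), a log2 difference of -8.63 with an SE of 0.35 (limma, adjusted p = 0.0020), or 397-fold on this scale. ZEB1 was at 6.51 ± 0.21 and 8.96 ± 0.01, a difference of -2.45 with an SE of 0.12 (limma, adjusted p = 0.0026). CDH2 was at 7.30 ± 0.25 in PANC-1 and not above background in HCT116, so it was at least 2.78-fold higher in PANC-1 (limma, adjusted p = 0.0065). In each of these 3 genes all 4 PANC-1 mock channels lay above all 4 HCT116 channels. The same held for SNAI1, which did not pass, at 7.97 to 8.06 against 7.71 to 7.85. How many of all genes were separated in this way was not counted, so it is not read as a trait of these genes.

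SNAI1 was at 7.79 ± 0.08 in HCT116 and 8.02 ± 0.03 in PANC-1, a log2 difference of -0.23 with a 95% interval of -0.41 to -0.05 (limma, adjusted p = 0.060). Without the HCT116 mocks of the miR-139 arrays it passed, at adjusted p = 0.038 (limma). SNAI2 differed by 0.19 (95% interval -0.23 to 0.61) and was above background in 3 HCT116 and no PANC-1 mock channel. TWIST1 differed by 0.01 (95% interval -0.19 to 0.22). Over all genes 8400 passed, and 1559 and 1739 did so without the PANC-1 mocks of the miR-30c and of the miR-30a arrays.

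The labelled cell types were set against their markers in the mock channels. Of 7 colon epithelium markers, CDX1 and CDX2 were above background on all HCT116 arrays, while CDH17, GPA33, VIL1 and LGALS4 were on none. CDX2 was higher in HCT116 by 1.22 on the log2 scale (limma, adjusted p = 0.0092). LGALS4 went the other way, higher in PANC-1 with a difference of -0.35 (limma, adjusted p = 0.029). Of 4 pancreatic duct markers, KRT7, KRT19 and SOX9 were above background on all PANC-1 arrays, and on all HCT116 arrays as well. Of the colon markers CDX1, CDX2 and LGALS4 were so on all PANC-1 arrays. The 4 duct markers all had higher mean levels in HCT116, by 2.08 for KRT7, and 0 passed in either direction (limma). Among 4 blood and 3 endothelial markers PTPRC, CD14 and CDH5 were above background in all mocks of both lines, at low levels. Between mock channels of 1 line, 0 to 11 genes were at least 2-fold apart where the 2 arrays belonged to 1 precursor. Where they belonged to different precursors, 196 to 208 genes were so in HCT116 and 38 to 45 in PANC-1.

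Other genes of the EMT programme were counted in 4 lists, read beside the median of all detected genes, which lay between 0.0048 and 0.021 on the 8 arrays. The lists hold 13 other transcription and splicing regulators of EMT, 18 epithelial junction and keratin genes, 18 mesenchymal matrix and cytoskeleton genes, and 10 genes of the TGF-beta pathway, a known inducer of EMT.

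Of the 18 epithelial junction and keratin genes, 16 were detected on the miR-30c-5p array, with a median log2 ratio of 0.34, 2 higher (0.747% of all detected genes were) and 0 lower. On the miR-30c-2-3p array the median was -0.35, with 0 higher and 4 of 16 lower (4.14% of all). On the miR-30a-5p array it was 0.37, with 2 of 16 higher (0.306% of all) and 0 lower. On the miR-30a-3p array it was 0.10, with 0 higher and 2 of 17 lower (1.1% of all). Under median centring the medians were 0.81, -0.02, 0.74 and 0.69, so the value for miR-30c-2-3p moved to near 0. The miR-30 strands that share a seed thus had the same 2 genes higher, CLDN1 and KRT18. CLDN1, a tight junction claudin, was at 1.74 for miR-30c-5p and 1.36 for the 5p strand of miR-30a, while its mock level in PANC-1 was 7.35 ± 1.05 (log2, SD, n = 2). KRT18, a keratin of simple epithelia, was at 1.25 and 1.09, and at -1.14 with miR-30a-3p. KRT19, another keratin of simple epithelia, was at -2.06 with miR-30c-2-3p, followed by the claudin CLDN7 at -1.54 and the desmosome gene PKP3 at -1.39. In HCT116 the medians of this list were -0.10, -0.03, 0.03 and -0.09.

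Of the 18 mesenchymal matrix and cytoskeleton genes, 13 or 14 were detected on the PANC-1 arrays. Their medians were 0.32, -0.35, 0.28 and 0.0046, highest on the 2 arrays where VIM was lowest. On the miR-30c-5p array 1 of 13 was higher, against 0.747% of all detected genes, and 0 were lower. On the miR-30c-2-3p array 2 of 13 were lower, against 4.14%, and 0 were higher. None was called on the miR-30a-5p array, and on the miR-30a-3p array 2 of 14 were lower, against 1.1%, and 0 higher. ITGA5, a fibronectin receptor subunit, was at 1.20 with miR-30c-5p. COL1A1, a collagen chain, was at -1.28 with miR-30c-2-3p. ITGB1, a beta integrin subunit, was at 0.54, 0.82, 1.20 and 1.08 in HCT116, above 0 on all 4 arrays and past 2-fold with both miR-143 strands. In PANC-1 it was at 0.32, 0.45, 0.02 and -1.10, and median centring gave -0.54 for miR-30a-3p. ACTA2, smooth muscle actin, was at 1.003 with miR-139-3p. In HCT116 9 or 10 genes of this list were detected, with medians of -0.02, 0.12, 0.33 and 0.04. There 0 were lower on any array, and 0, 1, 1 and 1 were higher, against 0.0587%, 2.11%, 0.356% and 0.517% of all detected genes.

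Of the 13 other regulators, 7 to 10 were detected per array, with the lowest median, -0.28, on the miR-143-5p array and the highest near 0. On the miR-143-5p array 2 of 8 were lower, against 1% of all detected genes, TCF3 at -1.57 and ESRP2 at -1.14. On the miR-30c-2-3p array 2 of 8 were lower, against 4.14%, ESRP2 at -1.61 and TCF3 at -1.42. TCF3 encodes the E proteins E12 and E47, which bind E-boxes, and ESRP2 an epithelial splicing factor, so the members that were lowest differ in what they do. No gene of this list was called on the other 6 arrays. TCF3 was still the lowest of the list on all 4 HCT116 arrays, at -0.90, -0.95, -1.57 and -0.51.

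All 10 TGF-beta pathway genes were detected in PANC-1, with medians of 0.35, 0.09, 0.37 and 0.26. TGFBR2, the type II receptor, was the one gene called there, at 1.04, 1.52, 0.81 and 1.05, so the miR-30a-5p value stayed short of 2-fold. It was thus 1 of 10 higher on 3 arrays, against 0.747%, 1.71% and 0.372% of all detected genes, and 0 of 10 on the miR-30a-5p array, against 0.306%. SMAD7, the inhibitory SMAD, was at 1.08 with miR-139-3p, the 1 of 9 called in HCT116, against 2.11% higher on that array. In HCT116 the medians were -0.04, 0.19, -0.03 and 0.01.

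**Figure D5:**
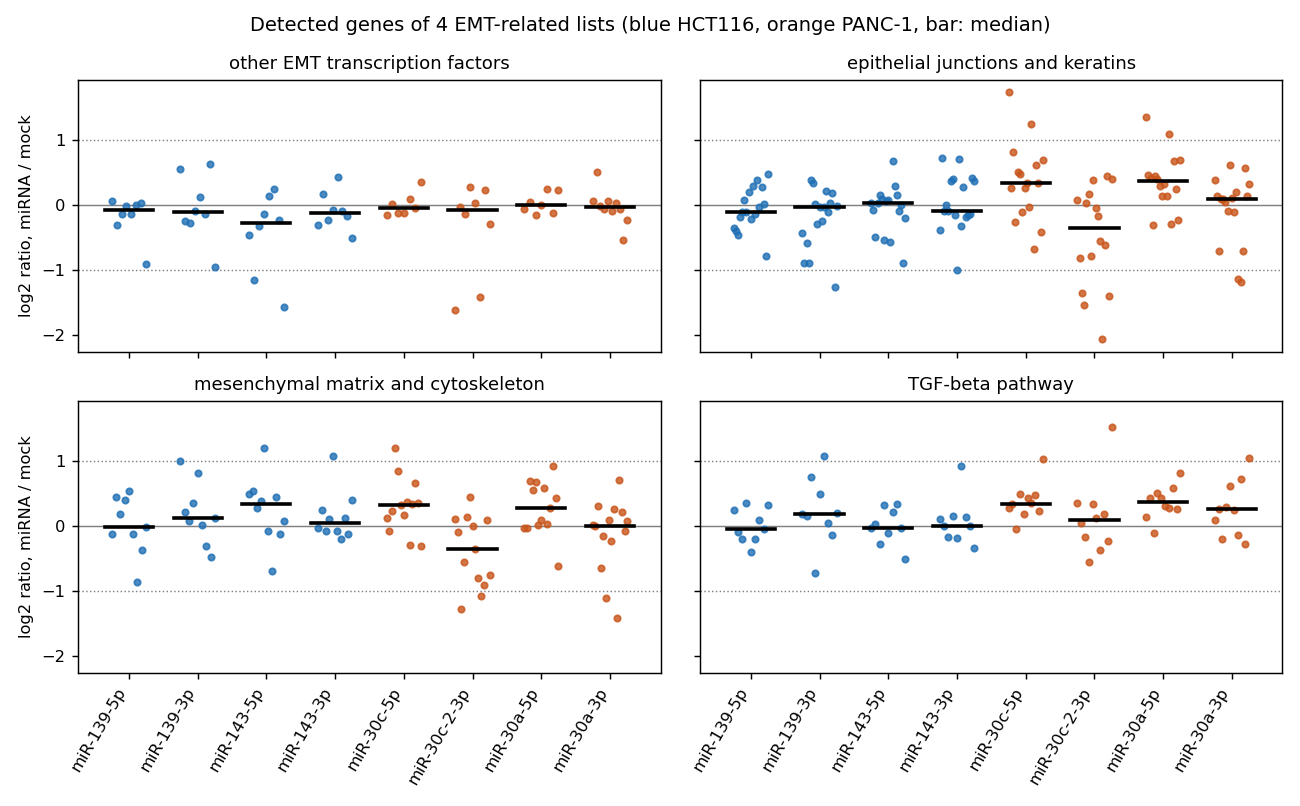
Log2 ratios of transfected over mock cells (y axis) for the detected genes of 4 EMT-related lists (panels) on the 8 arrays (x axis), 1 point per gene, with a black bar for the median and dotted lines at 2-fold. The epithelial list has medians of 0.34 and -0.35 on the miR-30c arrays (5p, then 3p) and of 0.37 on the miR-30a-5p array.

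Between the mock channels, 9 of the 18 epithelial genes were higher in HCT116 and 0 in PANC-1 (limma, adjusted over all genes), and 8 of 13 tested mesenchymal genes were higher in PANC-1. S100A4, a calcium-binding protein, was the one mesenchymal gene higher in HCT116, by 2.15 on the log2 scale (limma, adjusted p = 0.0040), and it is named after its values were seen. Of the 13 other regulators 7 were higher in HCT116 and 3 in PANC-1. Named after their values were seen, the 7 were SNAI3, KLF8, GRHL2, OVOL1, OVOL2, ESRP1 and ESRP2. The 3 were TWIST2, TCF4 and GSC. The genes of this list differ in what they do, so its counts give no direction of EMT. Of the 10 TGF-beta pathway genes 2 were higher in HCT116 and 3 in PANC-1. The counts stand beside 19.5% and 18.1% of all genes tested in these directions.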

How the data were processed

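Per the file headers, Agilent Feature Extraction 11.5.1.1 gave the mean spot intensity and median background intensity of both dyes, on hg19 probe positions. The deposited log10 ratios are Cy5 over Cy3 of the software's processed signals, and the authors' processed table holds the same values (largest difference 0). They were converted to log2 for use as an alternative, the scanner ratio. In the deposited files, calls of well above background, saturation and outliers are scores of 0 or 1. Columns without a sample numbered 0. The number of arrays limits the precision.

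Background was corrected by normexp (offset 50) in R 4.3.3 with limma 3.58.1 (files read by the data.table package, version 1.17.8). Ratios were normalised within each array by loess, control and outlier spots were left out, and spots of a probe were averaged. The brightest probe over the 8 arrays represents a gene. A call needs a log2 ratio at least 1 from 0. Bounds use the lowest level of probes well above background. Mock channels were quantile-normalised and fitted by limma, with 2 values per line, an adjusted p threshold of 0.05 and 3.59 total degrees of freedom. In a fit to simulated data for the mock comparison (22370 genes), 100 of 100 genes changed by 1 on the log2 scale were recovered, with 3 false calls. The labels do not say whether mocks are separate cultures, so these p-values may measure technical spread.

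The genes and lists were chosen with earlier results of these data known. All 10 genes are named. Of the lists, up to 3 genes per list and direction past 2-fold with both channels above background are named by size, with exceptions marked (some are not reported here), and the 3 genes most like a called gene are named. Alternatives were no background correction, the scanner ratio, median centring, outlier spots kept, other probe rules, no filter on dim probes, and each mock left out. All 10 gene names matched a RefSeq symbol. Searches and plots used Python 3.11.15, pandas 2.3.3, numpy 2.4.6 and matplotlib 3.10.9. Transcript and protein sequences were not used here.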

Additional observations from a re-analysis of the deposited data

How the results depend on the processing

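No paired analysis was possible because each miRNA has 1 array and the labels give no replicate numbers. The cause of the shifts was not tested.

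Without background correction VIM was at -1.57, -1.40 and -1.61 with miR-30c-5p, its 3p strand and miR-30a-5p. The scanner ratio gave -1.47 and -1.72 for the last 2, and median centring -0.92, -0.89 and -1.02. Under median centring the count of the 10 genes lower was 0 on both miR-30c arrays. Without background correction it was 1 on both miR-139 arrays and 2 on the miR-30c-2-3p array. By the scanner ratio it was 1 and 2 on the miR-139 arrays, 1 on the miR-143-3p array and 2 on the miR-30c-2-3p array, and 2, 1, 1 and 1 were higher with miR-139-5p, both miR-143 strands and miR-30a-5p.

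Over all genes, counts lower and higher with loess were 41 and 12, 585 and 436, 205 and 73, and 186 and 104 in HCT116. In PANC-1 they were 93 and 156, 857 and 354, 55 and 64, and 242 and 82. Median centring gave 11 and 53, 550 and 469, 105 and 206, and 171 and 128 in HCT116, and 24 and 832, 574 and 718, 22 and 295, and 46 and 1946 in PANC-1. The scanner ratio called from 361 lower and 397 higher (miR-139-5p) to 2452 and 1907 (miR-30c-2-3p). Without background correction the counts ran from 78 and 25 to 1401 and 546 on the same 2 arrays.

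For the other EMT regulators the scanner ratio gave medians of -0.26, -0.32, -0.73 and -0.42 in HCT116 and -0.28 with miR-30c-2-3p. On the last 4 of these arrays no background correction gave -0.20, -0.45, -0.27 and -0.15, and no filter on dim probes 0.017, -0.027, 0.0072 and -0.0091. Median centring gave 0.024 and -0.20 on the 5p arrays of HCT116, 0.24 on that of miR-30c and 0.078 and 0.062 on the miR-30a arrays, and the median over probes -0.17 with miR-143-5p. For the epithelial list median centring gave 0.28 with miR-139-5p and 0.81, -0.016, 0.74 and 0.69 in PANC-1, and no filter -0.099 with miR-30c-2-3p.

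For the mesenchymal list median centring gave 0.65 with miR-30c-5p and 0.58 and 0.22 on the miR-30a arrays. The scanner ratio gave 0.33 with miR-139-3p and 0.55 and -0.68 on the miR-30c arrays, and no filter 0.041 on the miR-143-5p array, -0.017 on that of miR-30c-2-3p and 0.030 on that of miR-30a-5p. For the TGF-beta list median centring gave 0.70, 0.22, 0.59 and 0.68 in PANC-1. The scanner ratio gave -0.37 and 0.48 on the miR-139 arrays and 0.52 and 0.51 for the miR-30 5p strands, and no background correction -0.17 and 0.30 on the miR-139 arrays.

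Between mocks 13972 genes passed when each Cy3 channel was its own value, and 1559 to 8722 when 1 mock was left out, with the lone mock assumed to vary like the other line. The TWIST1 difference of 0.01 turned to -0.22 from processed signals and -0.014 without background correction, and ran from -0.063 (without the HCT116 miR-139 mock) to 0.093 when 1 mock was left out. SNAI2 passed without the HCT116 miR-139 mock, at 0.37. Keeping outlier spots changed no direction or call. Dim spots limit SNAI2, TWIST1, ZEB2, FN1 and, in PANC-1, CDH1.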
